A study of Homo sapiens with 8 samples.

Results

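SOX17, FOXA2, GATA4 and GATA6 are transcription factor genes that direct cells into endoderm, and the called binding regions of SMAD2 and TEAD4 around them were examined in human embryonic stem cells. A region was taken when any base of it lay within 50 kb of the gene's ends, using the hg19 gene positions given for the selection. This gave 209 of the 972037 regions in 3 lists: 89 of 420548 for SMAD2 in cells given the solvent DMSO, 67 of 289380 for TEAD4 in DMSO cells, and 53 of 262109 for TEAD4 in cells given SB431542. The genes lie at 55370495 to 55373456 on chromosome 8 (SOX17), 22561642 to 22566101 on chromosome 20 (FOXA2), 11561717 to 11617509 on chromosome 8 (GATA4) and 19749416 to 19782227 on chromosome 18 (GATA6). FOXA2 is read from the minus strand and the others from the plus strand.

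The cells were the established line WA09, cultured on Matrigel in MEF-conditioned medium with 20% KO serum. They were kept for 4 h in DMSO or in 10 µM SB431542, a small molecule that inhibits the receptor kinases through which TGF-β, Nodal and activin signal. Of 8 labelled samples (SMAD2, TEAD4 and rabbit IgG precipitates and input DNA, each under both treatments), 3 have a region list that was used here, with 1 library per group, and 5 were not analysed here. No value therefore has a replicate error, no test between treatments was possible, and no RNA was measured that would show the cells' own markers. Read depth and calling threshold are unknown, so an absent region means only that none was called at that unknown depth.

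As background, activin and Nodal act through receptors that phosphorylate SMAD2, which enters the nucleus with SMAD4 and is led to its sites by partner factors such as FOXH1. Low signalling of this kind maintains human pluripotent cells, and strong signalling drives them towards mesendoderm and definitive endoderm, in which these genes switch on. TEAD4 is the DNA-binding partner of YAP and TAZ, the effectors that the Hippo pathway restrains. SOX17 carries an HMG box and marks both definitive and extraembryonic endoderm. FOXA2 is a forkhead pioneer factor, and GATA4 and GATA6 are zinc finger factors of endoderm and heart that bind GATA sites.

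SMAD2 regions covered the start of FOXA2 and the start of GATA6, but neither that of SOX17 nor that of GATA4. The FOXA2 region lay on chromosome 20 at 22566051 to 22566199, in row 121472 of the SMAD2 list (28.9% down the list). The GATA6 region lay on chromosome 18 at 19749301 to 19749499, in row 242524 (57.7% down). Neither stood near the head of the list, and no header or label explains the row order. For scale, 2.36% of points spaced 10 kb apart along the genome fell inside a SMAD2 region, and the median point was 2.23 kb from one. Neither gene start was covered by a TEAD4 region of either treatment: the nearest TEAD4 midpoint in DMSO cells was 1.70 kb upstream for FOXA2 and 1.03 kb into the gene for GATA6.

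Since a SMAD2 region spans the start of GATA6, the promoter of that gene is shown. It is the only one of the 4 that matched by symbol in the RefSeq promoter table, which is on build GRCh38.p14 (chr18:22169339-22169638, plus strand, 250 bases before to 50 after the RefSeq start). The start used by RefSeq need not be the base used for hg19, and positions were not moved between builds, so the letters cannot be laid against the ends of the SMAD2 region. Capitals mark the match to CAGAC, a short SMAD element.
GATA6 promoter: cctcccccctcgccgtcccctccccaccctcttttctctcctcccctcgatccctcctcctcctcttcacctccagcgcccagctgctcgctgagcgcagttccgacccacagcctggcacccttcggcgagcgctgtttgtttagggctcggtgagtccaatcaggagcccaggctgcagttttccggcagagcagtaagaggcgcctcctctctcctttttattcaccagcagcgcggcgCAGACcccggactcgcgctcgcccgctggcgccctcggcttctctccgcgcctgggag
CAGAC or its reverse complement occurred 1 time, from base 243 of the window, and 45.3% of the 35116 promoters in the table hold it. The TEAD letters GGAATG (held by 14.0% of promoters), the SMAD palindrome GTCTAGAC (0.202%), the FOXH1 letters AATCCACA (0.817%) and the AP-1 letters TGANTCA (7.71%) had no match on either strand in this window, and none of these motifs contains another. The promoter is rich in G and C, at 66.7% against a median of 58.7% over the table, and holds 25 CG pairs against a median of 14.

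The number of regions near the 4 genes was close to what the lists hold elsewhere, with exceptions at FOXA2 and GATA4. Pooled over 496.0 kb, SMAD2 had 17.9 regions per 100 kb against 14.7 over the whole list, a ratio of 1.22 with an exact Poisson interval of 0.979 to 1.5. TEAD4 had 13.5 per 100 kb in DMSO cells against 10.2 over its list (1.33, 1.03 to 1.69), and 10.7 in SB431542 cells against 9.19 (1.16, 0.871 to 1.52). These 95% intervals are for counting error alone and take each region as independent of its neighbours. Without FOXA2 the TEAD4 ratio in DMSO cells was 1.13, and within the first 10% of its rows it was 0.992, from 5 regions. Without GATA4 the ratio in SB431542 cells was 0.863.

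FOXA2 had the densest TEAD4 calls of DMSO cells, and GATA4 the densest of SB431542 cells. Within 50 kb of FOXA2, 22 TEAD4 regions were called in DMSO cells, 2.07-fold the density of the whole list (1.30 to 3.14), whereas stretches of the same length over the genome held a median of 10 (quartiles 8 and 13). The same window held 12 TEAD4 regions under SB431542, a ratio of 1.25 (0.646 to 2.18). At GATA4 the 2 TEAD4 lists stood the other way round, with 20 regions in DMSO cells (1.26, 0.772 to 1.95) and 26 under SB431542 (1.82, 1.19 to 2.66). At both genes the intervals of the 2 TEAD4 lists overlapped. Genome stretches as long as the GATA4 window held a median of 14 SB431542 regions (quartiles 11 and 18). Of 12 densities, 1 for each gene and list, these 2 had intervals above that of the whole list and 0 lay below it. Against the 100 kb beyond each side of the window the ratio was 1.32 at FOXA2 and 2.78 at GATA4, since TEAD4 calls of DMSO cells were also dense beyond the FOXA2 window, and those of SB431542 cells were sparse beyond the GATA4 window. In the first 10% of rows the FOXA2 ratio was 0.942, from 1 region, and the GATA4 ratio 2.81, from 4 regions.

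**Figure D1:**
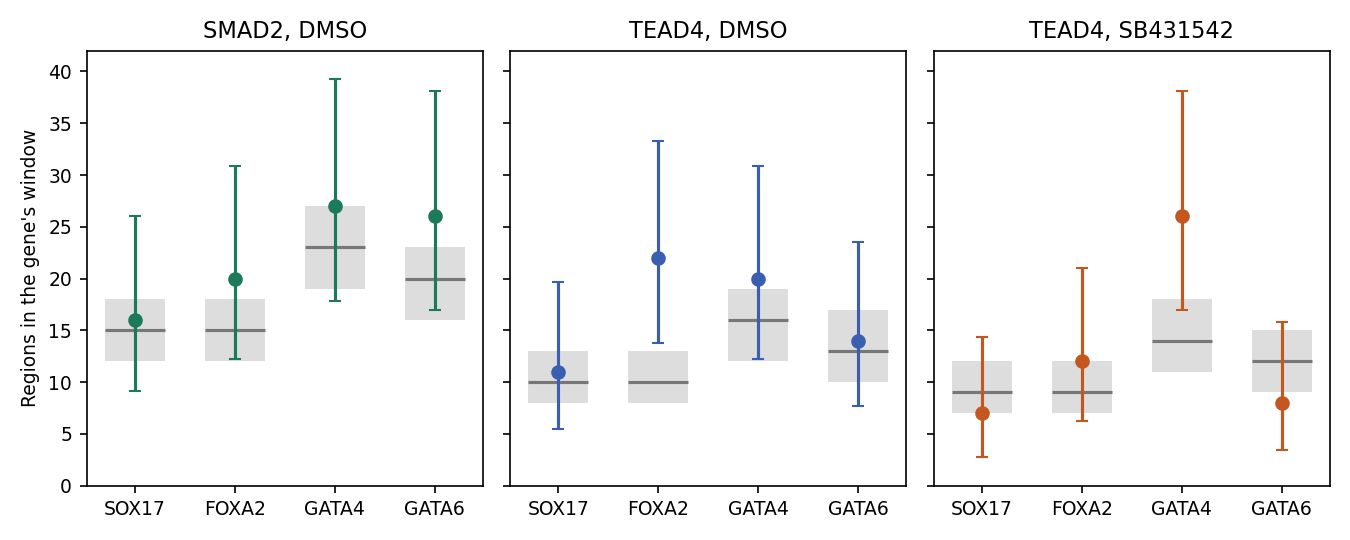
Number of called regions within 50 kb of each gene (vertical axis) for the 3 lists, SMAD2 and TEAD4 in DMSO cells and TEAD4 in SB431542 cells, with 1 library each. Points carry exact 95% Poisson intervals for counting error. Grey boxes span the quartiles and grey lines the median of all genome stretches as long as that gene's window. TEAD4 at FOXA2 in DMSO cells (22) and TEAD4 at GATA4 under SB431542 (26) are the points whose intervals lie above the density of the whole list, whereas SOX17 and GATA6 lie near or below the median for TEAD4.

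SOX17 and GATA6 had few TEAD4 regions under SB431542: 7 and 8, against 11 and 14 in DMSO cells. Relative to each list these were ratios of 0.739 (0.297 to 1.52) and 0.655 (0.283 to 1.29) under SB431542, and 1.05 (0.525 to 1.88) and 1.04 (0.567 to 1.74) in DMSO cells, and all these intervals include 1. SMAD2 counts were 16 at SOX17, 20 at FOXA2, 27 at GATA4 and 26 at GATA6, with ratios between 1.06 and 1.33 and intervals that each include 1. The TEAD4 lists were made in different ways (all DMSO starts lie on a 50 bp grid, as do 1.97% of the SB431542 starts), so treatment and list type cannot be told apart in any count set side by side here.

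Around SOX17, no region of any list touched the gene, and its calls lay on both sides of it. The nearest SMAD2 region was 7.36 kb beyond the start, at 55377801 to 55377899 (row 275966). The nearest TEAD4 region of DMSO cells was 5.77 kb upstream, at 55364551 to 55364899 (row 122480), and the nearest under SB431542 was 6.62 kb downstream, at 55377034 to 55377191 (row 87829). Distances run from the gene start to the midpoint of the region. The last of these was also the site in which the TEAD4 lists met: it shared 141 bp with the DMSO region at 55377051 to 55377199 (row 212009, 73.3% down its list). That DMSO region was 1 of 4 TEAD4 regions of DMSO cells between 55376601 and 55379449, the densest 10 kb of that list at SOX17. The stretch was picked after the positions were seen. Over the whole list, 13.8% of regions began a 10 kb stretch with at least as many.

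The regions of SOX17 earliest in each list lay elsewhere. SMAD2 had its first at 55385951 to 55386199, 15.58 kb downstream, in row 9409 (2.24% down). TEAD4 of DMSO cells had its first at 55398101 to 55398349, 27.73 kb downstream, in row 15161 (5.24% down), with no SB431542 partner and the nearest such region 1248 bp away. TEAD4 under SB431542 had its first at 55325429 to 55325606, 44.98 kb upstream, in row 38392. SMAD2 and TEAD4 of DMSO cells shared 0 sites among 16 SMAD2 regions, which allows a share of up to 18.8%, against 5.29% over the list. SMAD2 met TEAD4 of SB431542 cells by 2 bp, where the SMAD2 region at 55399501 to 55399599 (row 380675) ended on the TEAD4 region at 55399598 to 55399736 (row 43092).

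At FOXA2, TEAD4 of DMSO cells was spread over both flanks, with 13 regions upstream, 9 downstream and 0 within the gene of 4460 bp. The nearest to the start, at 22567701 to 22567899 (row 117405), lay 1.70 kb upstream and 151 bp from a SMAD2 region. The first in row order, at 22604151 to 22604399 (row 23304, 8.05% down), lay 38.17 kb upstream. In the RefSeq table the long noncoding RNA gene LINC00261 is the neighbour downstream of FOXA2 and LNCNEF the neighbour upstream. The 9 downstream regions thus lie on the side of LINC00261, though its ends on hg19 were not used here. Of the 22 regions, 16 (72.7%) stood in the first 50% of the list, against 3 of 11 at SOX17 (27.3%), 9 of 20 at GATA4 (45%), 9 of 14 at GATA6 (64.3%) and 55.2% over the 4 genes. The share over the 4 genes includes the 22 regions of FOXA2, and 50% of the list stands there by construction. No interval was taken for these shares.

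SMAD2 at FOXA2 had 3 of 20 regions (15.0%) in the first 10% of its rows, which hold 10% of the list by construction. The counts were 1 of 16 at SOX17, 0 of 27 at GATA4 and 2 of 26 at GATA6, and no interval was taken. The first at FOXA2, at 22521251 to 22521599 (row 5928, 1.41% down), lay 44.68 kb downstream of the start. It was the SMAD2 region earliest in its list at any of the 4 genes. The next, at 22525551 to 22525749 (row 11321), lay 40.45 kb downstream, 417 bp from the SB431542 TEAD4 region at 22526167 to 22526360 (row 36517). The third, at 22586651 to 22586849 (row 31332), lay 20.65 kb upstream. None of them overlapped a TEAD4 region of either treatment, which holds for most SMAD2 regions. Over the whole list 5.29% overlapped TEAD4 of DMSO cells and 3.39% TEAD4 of SB431542 cells.

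Shared sites at FOXA2 were about as frequent as over the lists, at 1 of 20 SMAD2 regions with TEAD4 of DMSO cells (5.0%, against 5.29%) and 1 of 22 TEAD4 regions of DMSO cells with SB431542 (4.55%, against 5.69%). SMAD2 and TEAD4 of DMSO cells met at 1 site, 22.7 kb downstream, where SMAD2 at 22543301 to 22543499 (row 277825) shared 49 bp with TEAD4 at 22543151 to 22543349 (row 77546). The TEAD4 lists met at 1 site 6.28 kb downstream of the start, past the end of the gene, where the DMSO region at 22559601 to 22560049 (row 59425) contained all 177 bp of the SB431542 region at 22559847 to 22560023 (row 75276). SMAD2 and TEAD4 of SB431542 cells shared 0 of 20 SMAD2 regions, which allows up to 15.0%, against 3.39% over the list. Under SB431542 the TEAD4 region nearest to the start, at 22571394 to 22571494 (5.34 kb upstream), stood in row 257766, close to the end of the list. The first, at 22577104 to 22577301 (row 16076, 6.13% down), lay 11.10 kb upstream.

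GATA4 held most of the shared sites and the TEAD4 regions earliest in their lists. Its window was also the longest, at 155.8 of the 496.0 kb, which favours both. In DMSO cells, 3 of 20 TEAD4 regions at GATA4 (15.0%) stood in the first 10% of rows, which hold 10% of the list by construction. The first was at 11537201 to 11537499 (row 5687, 1.97% down), 24.37 kb upstream. The second was at 11562951 to 11563249 (row 6569), 1.38 kb inside the gene. The third was at 11529251 to 11529499 (row 8583), 32.34 kb upstream. The second and the third had a partner under SB431542 and the first had none, with the nearest SB431542 region 3466 bp away. The SB431542 partners stood far lower in their own list, at row 162632 (11562953 to 11563060, 62.0% down) and row 184926 (11529214 to 11529373, 70.6% down). In 2 other pairs the places lay closer together: 52.6 and 51.2% down the lists at GATA4 (row 152331), and 20.5 and 28.7% at FOXA2 (row 59425). Another SB431542 partner at GATA4 stood lower, with places of 17.2 and 48.4% (row 49850). The SB431542 partner stood higher at GATA4 row 273325 (94.5 and 51.5%) and at SOX17 row 212009 (73.3 and 33.5%). The pairs of rows 6569 and 8583 were picked for early DMSO places, so their drop shows no general shift.

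The site 32 kb upstream of GATA4 was the one place near the 4 genes where all 3 lists met. How often this happens over the whole lists was not counted, so the site cannot be set against a background. SMAD2 was called there at 11529201 to 11529399 (row 67364, 16.0% down) and shared 149 bp with the TEAD4 region of DMSO cells. All 160 bp of the SB431542 region lay within the SMAD2 region, and 123 bp of it lay within the DMSO TEAD4 region. Around it, SMAD2 had 5 regions from 11522901 to 11531199 and TEAD4 under SB431542 had 6 from 11524498 to 11533734. These were picked as the densest 10 kb of each list at GATA4 after the positions were seen, so their density is only a description. At least as many followed within 10 kb for 5.99% of all SMAD2 regions and 1.49% of all SB431542 TEAD4 regions, the region itself counted. The latter stretch also held the SB431542 region earliest in its list at any of the 4 genes, at 11524498 to 11524695 (row 5451, 2.08% down), 248 bp from a SMAD2 region and 2548 bp from the nearest TEAD4 region of DMSO cells.

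In all, 5 of the 20 TEAD4 regions of DMSO cells at GATA4 overlapped an SB431542 region (25%, 95% Wilson interval 11.2 to 46.9%), against 5.69% over the whole list. Besides the regions in rows 6569 and 8583, these were at 11528001 to 11528149 (row 273325, sharing 45 bp with row 134873), at 11533551 to 11533999 (row 49850, containing the 161 bp of row 126834) and at 11587101 to 11587349 (row 152331, sharing 108 bp with row 134306). The first 10% of the DMSO rows had a higher share with a partner, 12.8%, and 2 of the 5 came from there. Regions in those rows were also wider, with a median of 299 bp against 99 bp in the last 10% of rows. Whether width accounts for the higher share was not tested. Over the whole list, regions at the same places in the row order as the 20 had a partner in 6.10%. The count fell to 3 when midpoints had to lie within 100 bp, to 2 within 25 kb of the gene, to 1 with the first 50% of both lists, and to 0 when 50% of both regions had to overlap. The 5.69% holds for overlap by 1 bp with all rows, so counts under stricter rules cannot be set against it. In the other direction 5 of 26 SB431542 regions at GATA4 overlapped a DMSO region (19.2%, 8.51 to 37.9%), against 6.39% over that list.

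The gene body of GATA4, 55793 bp long, held 8 SMAD2 regions, 6 TEAD4 regions of DMSO cells and 11 of SB431542 cells. For scale, the whole lists held 14.7, 10.2 and 9.19 regions per 100 kb, in that order. SMAD2 met TEAD4 of SB431542 cells inside the gene, 13.98 kb from the start, where SMAD2 at 11575601 to 11575799 (row 93846) shared 47 bp with TEAD4 at 11575753 to 11575950 (row 23199, 8.85% down). The nearest TEAD4 region of DMSO cells was 6801 bp from that SMAD2 region. The SMAD2 region at GATA4 earliest in its list, at 11591151 to 11591349 (row 47155, 11.2% down), lay 29.53 kb into the gene, 32 bp from the SB431542 region at 11591382 to 11591554 (row 10426, 3.98% down). A further overlap of SMAD2 and TEAD4 under SB431542 lay 92.78 kb from the start, past the gene's end, at 11654401 to 11654599 (row 336895) and 11654489 to 11654625 (row 203990). The RefSeq table places NEIL2 and FDFT1, a DNA glycosylase gene and the squalene synthase gene, among the neighbours on that side.

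Close to the start of GATA4, TEAD4 and SMAD2 lay side by side without meeting. The nearest TEAD4 region of DMSO cells, at 11560901 to 11561349 (row 57591), was 0.59 kb upstream, and the nearest SMAD2 region, at 11560651 to 11560849 (row 176557), was 0.97 kb upstream and 51 bp from it. TEAD4 under SB431542 was nearest inside the gene, 1.29 kb from the start, in the region in row 162632 given above. In DMSO cells 5 TEAD4 regions lay between 11554001 and 11563249, across the start. This was the densest 10 kb of that list at GATA4, picked after the positions were seen. Over the whole list, 4.73% of regions began a 10 kb stretch with at least as many.

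**Figure D2:**
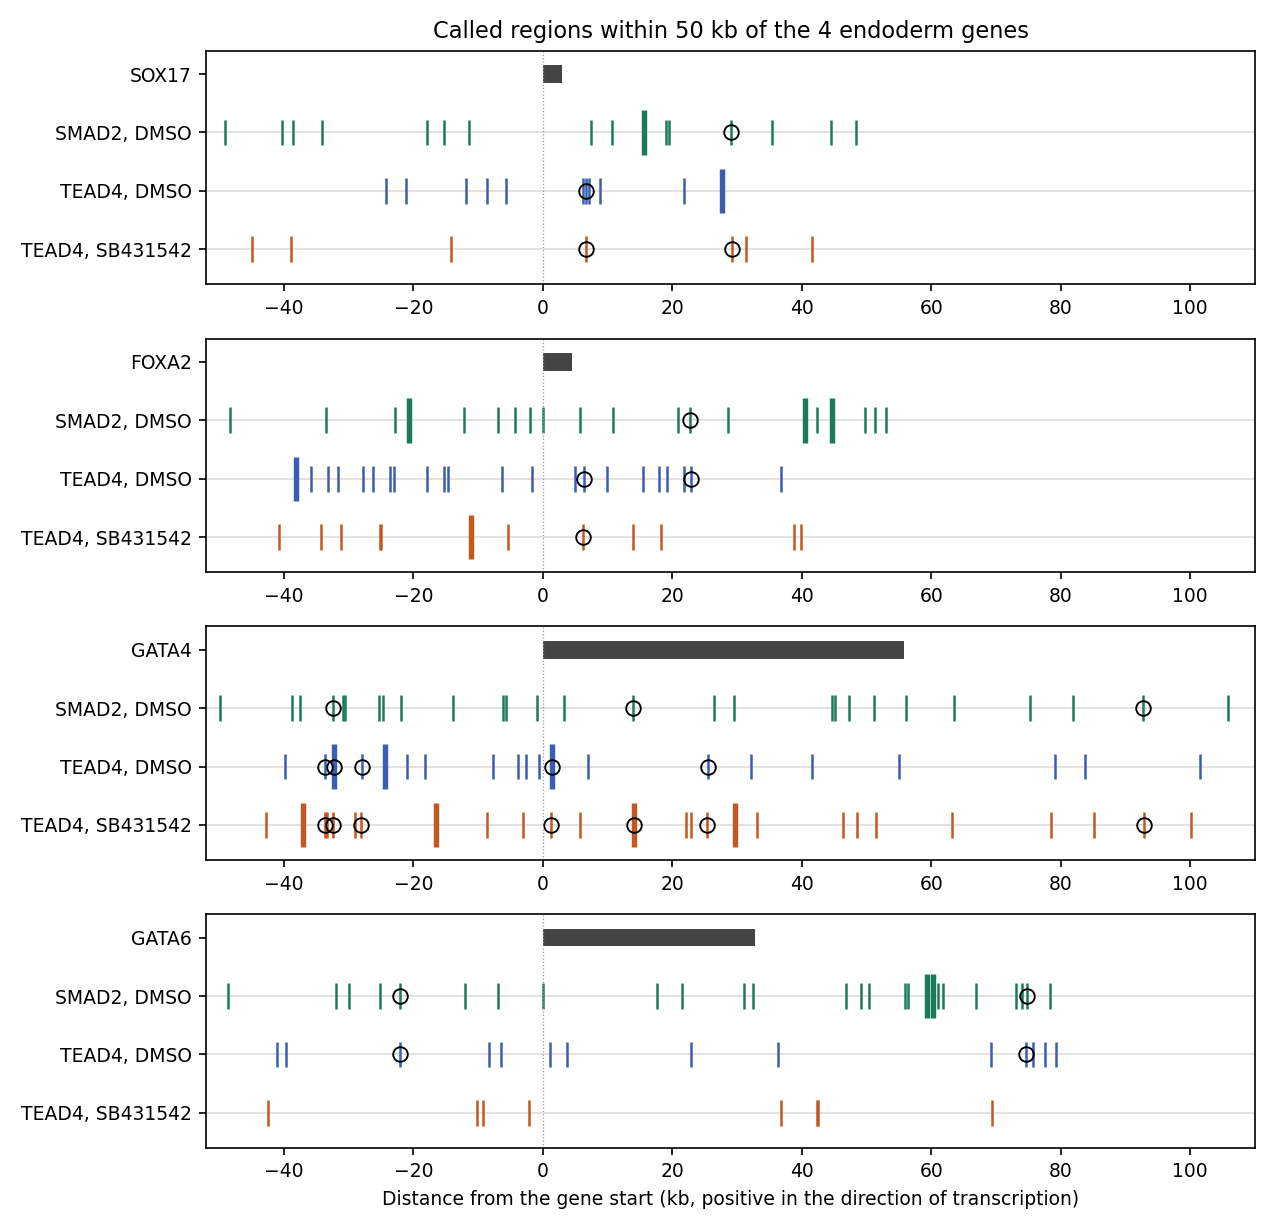
Called regions around SOX17, FOXA2, GATA4 and GATA6, 1 panel per gene. The horizontal axis is the distance of a region's midpoint from the gene start in kb, positive in the direction of transcription, and the dark bar is the gene. Thin ticks are regions, tall thick ticks are regions in the first 10% of the rows of their list, and circles mark regions that overlap a region of another list. Circles are most frequent at GATA4, upstream of and within the gene, with the site of all 3 lists 32 kb upstream of the start, and GATA6 has none in the TEAD4 list of SB431542 cells.

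At GATA6, 0 of 14 TEAD4 regions of DMSO cells overlapped an SB431542 region, which allows a share of up to 21.4%, against 5.69% over the list. In the other direction 0 of 8 did, which allows up to 37.5%, against 6.39%, so that neither count can be told from the background. The DMSO region at 19818501 to 19818699 (row 78602) came closest, 49 bp from the SB431542 region at 19818749 to 19818913 (row 40021, 15.3% down), which was the first of the SB431542 regions at GATA6. SMAD2 met TEAD4 of DMSO cells at 2 sites. Upstream by 22.09 kb, SMAD2 at 19727251 to 19727399 (row 305413) lay inside TEAD4 at 19727201 to 19727399 (row 134948), and 74.83 kb past the start SMAD2 at 19824151 to 19824349 (row 126397) shared 49 bp with TEAD4 at 19823951 to 19824199 (row 78601). The SMAD2 region at GATA6 that came closest to TEAD4 of SB431542 cells was 1854 bp away from it.

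The densest 10 kb of SMAD2 calls at GATA6, picked after the positions were seen and given as a description, lay downstream of the gene. Between 55.88 and 61.88 kb past the start, from 19805251 to 19811399, 6 SMAD2 regions were called. They included both SMAD2 regions of the gene that stood in the first 10% of rows, at 19809651 to 19809849 (row 28334, 6.74% down) and 19808651 to 19808849 (row 40488). The nearest TEAD4 region of either treatment was 7101 bp from any of the 6. Over the whole SMAD2 list, 1.57% of regions began a 10 kb stretch with at least 6. The TEAD4 region of DMSO cells earliest in its list at GATA6, at 19825051 to 19825249 (row 39549, 13.7% down), lay 75.73 kb past the start. The TEAD4 region of DMSO cells nearest to the start, at 19750351 to 19750549 (row 253991), lay 1.03 kb inside the gene, and that of SB431542 cells, at 19747216 to 19747368 (row 130560), lay 2.12 kb upstream.

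No score or header states what the row order stands for, and it could be read only in coarse steps. Regions early in each list were wider than those late in it. Median widths in the first and last 10% of rows were 249 and 99 bp for SMAD2. They were 299 and 99 bp for TEAD4 in DMSO cells, and 198 and 106 bp under SB431542. What sets the order was not tested. Long stretches of each list ran backwards through the chromosome names and positions, so that neighbouring regions of a locus sat in adjacent rows, as the TEAD4 regions in rows 78601, 78602 and 78603 at GATA6 did. Runs of more than 20 such rows held 82.7% of the SMAD2 list, 95.9% of the TEAD4 list of DMSO cells and 91.7% of that of SB431542 cells, and the longest held 8992, 11104 and 1780 rows. Within a run the order is that of position, so rows of 1 run do not rank its regions. The GATA4 regions in rows 5687, 6569 and 8583 belonged to runs of 673, 641 and 988 rows, which is fine enough to keep all 3 in the first 10% of the list.

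Read in that way, the 4 genes did not stand at the head of the lists. In the first 10% of rows were 6 of 89 SMAD2 regions (6.74%), 5 of 67 TEAD4 regions of DMSO cells (7.46%) and 5 of 53 of SB431542 cells (9.43%). Median places were 54.7, 41.5 and 47.2% down the lists. Among the genes the median place of SMAD2 ran from 37.8% at GATA4 to 65.3% at SOX17, although GATA4 had 0 of 27 SMAD2 regions in the first 10% of rows. For TEAD4 in DMSO cells it ran from 30.5% at GATA6 to 69.2% at SOX17, and for TEAD4 under SB431542 from 23.1% at SOX17 to 49.1% at GATA4.

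**Figure D3:**
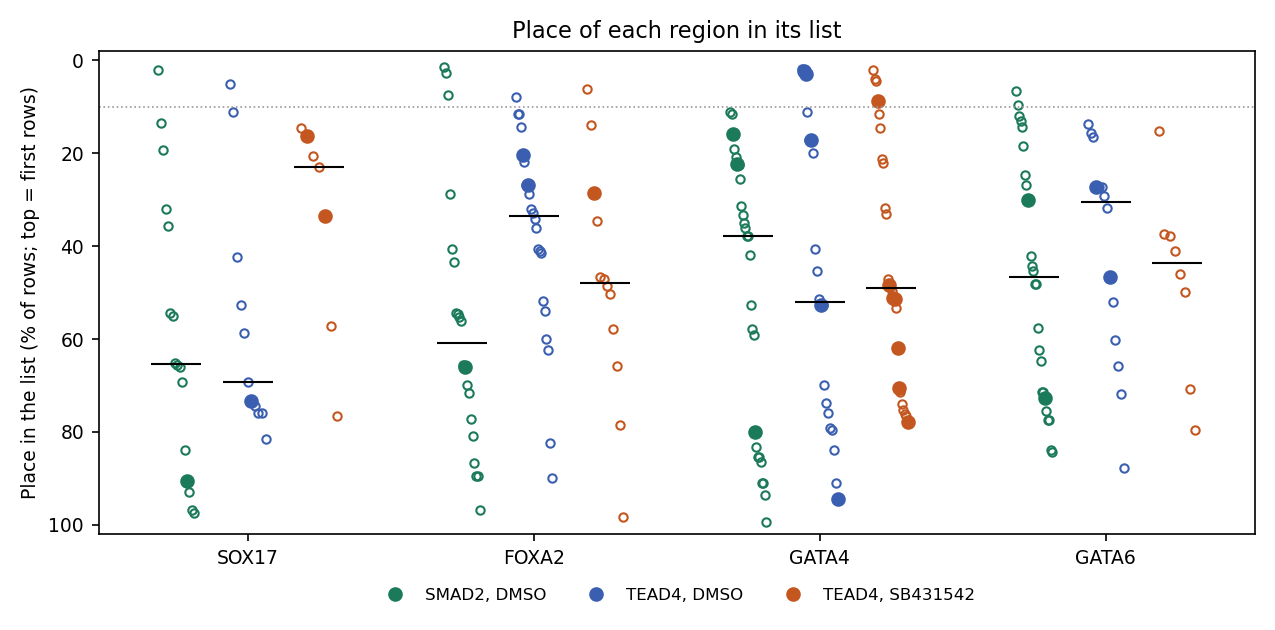
Place of every region in its list, in percent of rows counted from the first row (top), by gene and list. Filled points overlap a region of another list, open points do not, black bars are medians and the dotted line marks the first 10% of rows. The filled TEAD4 points of DMSO cells at GATA4 include 2 in the first 10% of rows, while their SB431542 partners lie at 62.0 and 70.6%. The other GATA4 pairs of the TEAD4 lists lie at 17.2, 52.6 and 94.5% in DMSO cells. Their SB431542 partners lie at 48.4, 51.2 and 51.5%, in that order.

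Pooled over the genes, SMAD2 and TEAD4 of DMSO cells shared sites about as often as over the whole lists, whereas the shares between the TEAD4 lists were higher than over the whole lists, with most of these sites at GATA4. SMAD2 regions overlapped TEAD4 of DMSO cells in 4 of 89 cases (4.49%, 1.76 to 11.0%), against 5.29% over the list, and TEAD4 regions overlapped SMAD2 in 4 of 67 (5.97%, 2.35 to 14.4%), against 7.67%. With regions up to 500 bp apart counted, these became 13 of 89 (14.6%, against 15.4%) and 13 of 67 (19.4%, against 22.1%). SMAD2 regions overlapped TEAD4 of SB431542 cells in 4 of 89 cases (4.49%, against 3.39%), and in the other direction 4 of 53 did (7.55%, 2.97 to 17.9%, against 5.46%). The TEAD4 lists shared 7 of 67 DMSO regions (10.4%, 5.15 to 20.0%, against 5.69%) and 7 of 53 SB431542 regions (13.2%, 6.55 to 24.8%, against 6.39%), of which GATA4 gave 5. The last of these was the pooled share whose interval lay above that of its list. Of 24 shares, 1 for each gene and direction, 3 had a Wilson interval above the share of the whole list, all at GATA4, and 0 lay below it. The third, besides both TEAD4 directions, was SMAD2 with TEAD4 of SB431542 cells, at 3 of 27 (11.1%, 3.85 to 28.1%), against 3.39% over the list. In the other direction the same sites were 3 of 26 (11.5%, 4.0 to 29.0%), an interval that includes the 5.46% of that list. Both TEAD4 directions count the same 5 sites, so the 3 shares are not separate results. Of the 209 regions, 182 (87.1%) overlapped no region of another list, against 89.5% of all regions.

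**Figure D4:**
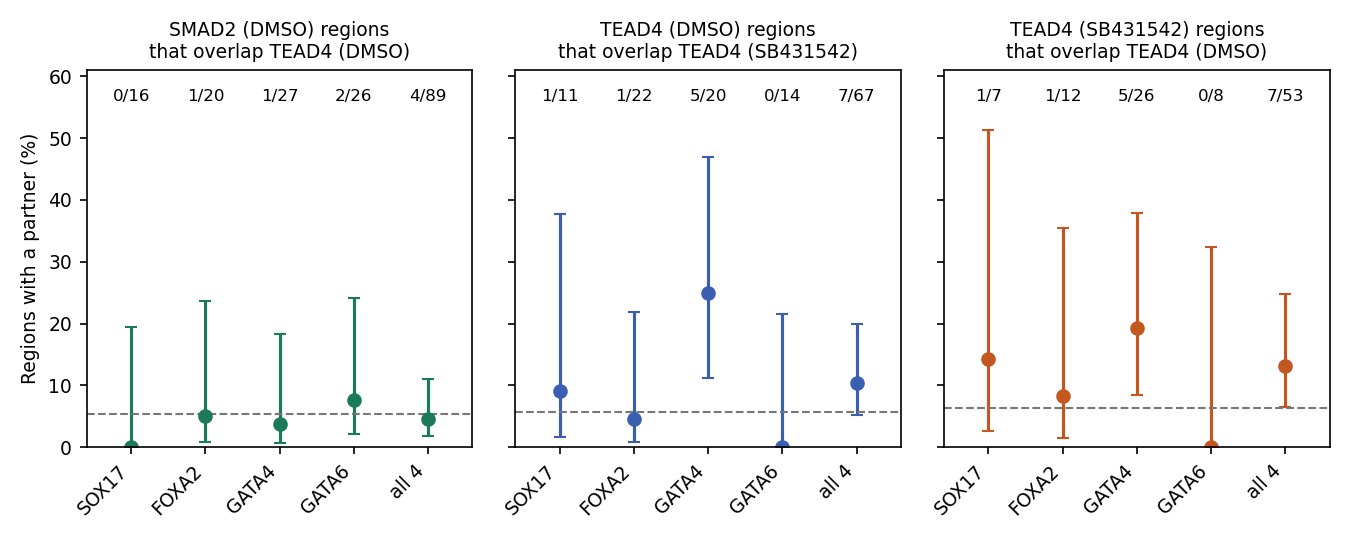
Share of regions near each gene, and near all 4, that overlap a region of another list by at least 1 bp (vertical axis, in percent), with 95% Wilson intervals for counting error. The fractions at the top give the regions with a partner and all regions, and dashed lines the share over the whole list. GATA4 lies above the dashed line with its whole interval for TEAD4 between the treatments, at 5 of 20 and 5 of 26, and SMAD2 with TEAD4 in DMSO cells lies at the line or within its interval at each gene.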

How the data were processed

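The authors deposited called regions without score or header, as chromosome, start and end positions in bp (carriage returns at line ends), on hg19 per the submitters' processing notes. The sources used here give no aligner, caller, control or depth. Each list was tied to a sample by the target and treatment in its name, and a start was raised by 1 bp for printing. Overlap meant at least 1 bp. Densities were taken over 2847 Mb of 23 chromosomes (Y left out), from first to last region and without stretches of at least 1 Mb that hold no region. Tiles of each window's length gave the genome medians. Strands other than that of GATA6 are background knowledge. The members, lists and rules were chosen with earlier results of these data known. The regions named are, per gene and list, the first in row order, the nearest to the start, and each that overlaps another list; further ones were named after their values were seen. Counting functions were tested on simulated data. Python 3.11.15, NumPy 2.4.6, pandas 2.3.3, SciPy 1.17.1 and matplotlib 3.10.9 were used.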

Additional observations from a re-analysis of the deposited data

How the results depend on the processing

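Of 10 alternatives per list for the pooled density, all gave values inside the main interval except 3. With the first 10% of rows the ratio was 0.821 for SMAD2 and 0.992 for TEAD4 in DMSO cells. Without GATA4 it was 0.863 for TEAD4 under SB431542. In all 3 the ratio crossed 1, from above to below. The FOXA2 ratio of TEAD4 in DMSO cells crossed 1 as well with the first 10% of rows (0.942). The GATA4 ratio of TEAD4 under SB431542, 1.82, rose above its interval (1.19 to 2.66) with the first 10% of rows (2.81, from 4 regions) and against the 100 kb beyond each side (2.78). The cause was not tested, and the first 10% of rows hold 6 regions for SMAD2, 5 for TEAD4 in DMSO cells and 1 of these at FOXA2. Overlap counts were small and followed the rule by construction. In the order TEAD4 of DMSO with SMAD2, TEAD4 of DMSO with TEAD4 of SB431542, and SMAD2 with TEAD4 of SB431542, they were 4, 7 and 4. They became 2, 1 and 2 with 50% of both regions overlapping, 2, 4 and 2 with midpoints within 100 bp, and 13, 15 and 11 with regions up to 500 bp apart. With the first 50% of rows they were 2, 2 and 1, within 25 kb 2, 4 and 1, and within 100 kb 9, 9 and 7. Removing the widest 1% of regions left all 3 as they were. No whole-list shares are given for the stricter rules, so the lower counts cannot be set against a background. No paired analysis was possible because there is a single library per group, which also means that none could be dropped. Depth and threshold are unknown and limit every absence.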
